A study of Homo sapiens with 6 samples.

Results

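Purines are recycled as well as broken down, and 10 enzyme genes of these routes were examined in the lung adenocarcinoma line A549 after knockdown of MRPL35, a protein of the mitochondrial ribosome. The genes are XDH, PNP, HPRT1, APRT, ADA, ADK, NT5E, NT5C2, AMPD2 and AMPD3. They were grouped by their place in purine breakdown and salvage, and the group was chosen because the XDH signal stood far higher in the knockdown cells. Every probe set annotated with exactly 1 of these symbols was taken, which gave 27 of the 49395 probe sets on the array and 10 of the 18244 genes tested. The group therefore comes from the same contrast that is described here, so differences in these 10 genes are given as descriptions without p-values. Calls of these genes and their probe sets at the threshold are likewise counted as description only.

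The study compared 3 arrays of A549 cells that received lentivirus with a short hairpin against MRPL35 (KD) with 3 arrays of A549 cells that received a control hairpin virus (NC). Both groups thus carry a lentivirus and a hairpin, and the labels name 1 hairpin against the target, no rescue and no time after transduction. All cells grew in RPMI-1640 medium with 10% serum. Whether the 3 samples of each group are separate cultures is not stated in the labels, so p-values measure the spread between these samples only, which may be technical. The source name of NC replicates 2 and 3 holds another line number, although their characteristics give A549.

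The values are log2 probe set signals, on which a difference of 1 is a doubling, and they ran from 2.05 to 14.32. MRPL35 itself read 6.49, 6.44 and 6.56 in KD and 8.16, 8.05 and 8.36 in NC, and its signal fell by 1.69 log2 units (SE 0.096; limma, adjusted p = 3.77e-06). All 4 of its probe sets fell. NC replicate 2 stood apart from the other arrays on the second principal component, which carried 11.8% of the variance, and values without it are given where a call or a value depends on it. Of 8 epithelial and A549 markers, KRT8, KRT18, KRT19, NQO1, AKR1C1 and AKR1B10 had group means between 11.03 and 13.90, CDH1 read 9.86 in KD and 8.56 in NC, and EPCAM was low (6.08 and 5.87). In KD 5 of these 8 were higher by limma and 0 lower, CDH1 by 1.31 ± 0.12 (difference ± SE; adjusted p = 3.96e-05), AKR1C1 by 1.13 ± 0.078 (1.11e-05) and KRT8, KRT18 and KRT19 by 0.37 to 0.50. Their part in the results below was not tested. The alveolar surfactant genes SFTPC, SFTPB and SFTPA1 and the lung factor NKX2-1 lay between 2.88 and 6.71. Of 14 measured markers of alveolar type 2 cells, blood cells, endothelium and fibroblasts, 1 was higher, CD14 (0.60 ± 0.11, difference ± SE; limma, adjusted p = 0.00293). These are bulk samples, in which fewer cells of a kind and less RNA per cell cannot be told apart.

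Cells build purine nucleotides from small precursors at high cost, or rebuild them from bases and nucleosides. Nucleotidases and AMP deaminases start the breakdown of AMP, and adenosine deaminase and purine nucleoside phosphorylase carry it on to hypoxanthine. Xanthine dehydrogenase ends the breakdown at urate. Salvage runs the other way: adenosine kinase returns adenosine to AMP, and the phosphoribosyltransferases APRT and HPRT1 return free bases to nucleotides.

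The enzymes did not move as a block. XDH, NT5E, ADK, ADA, APRT and AMPD3 read higher in every KD array than in any NC array, and HPRT1, PNP and AMPD2 read lower. In the fit across all genes, 6 of the 10 were called higher (background: 17.6% of all genes), 2 lower (15.9%) and 2 neither. All genes called in either direction made up 33.5%. Arrays of the groups did not overlap for 9 of the 10 genes, against 44.7% of all genes. Because the group was chosen on this contrast, nothing is read from these shares. The median of the 10 differences was 0.39, against -0.018 over all genes, and the median absolute difference was 0.65 against 0.17.

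**Figure D1:**
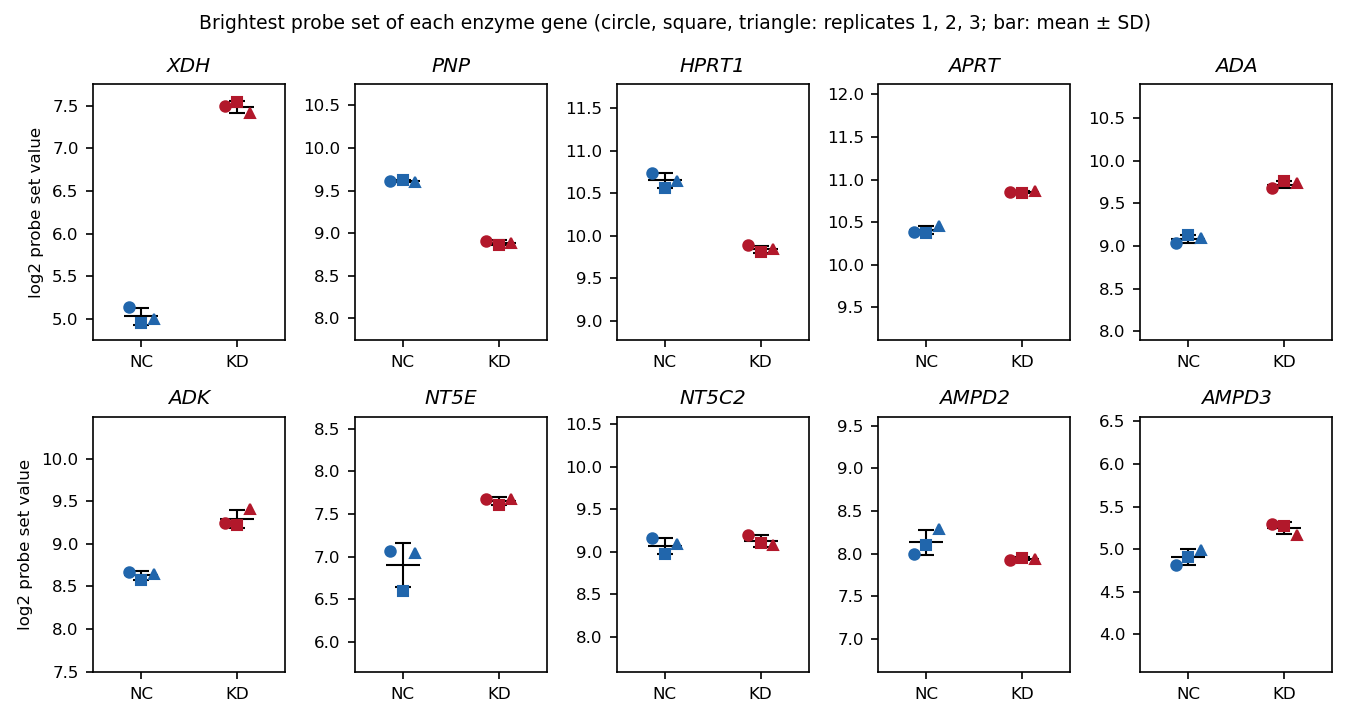
Log2 signal (vertical axis, 3 log2 units in every panel) of the brightest probe set of each of the 10 genes in the 3 NC and 3 KD arrays; symbols mark replicates and black bars the mean and SD. XDH has by far the widest gap, with KD arrays between 7.41 and 7.55 and NC arrays between 4.95 and 5.14, and NT5C2 is the gene whose groups overlap.

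The stretch around the start of transcription is shown for 4 genes, those with the widest differences upwards (XDH and NT5E) and downwards (HPRT1 and PNP), since these stood on opposite sides. Each run holds 250 bases before and 50 after a gene's start, taken from RefSeq on GRCh38.p14 and written 5′ to 3′ along the gene. XDH lies at chr2:31414693-31414992 (minus strand), NT5E at chr6:85449833-85450132, HPRT1 at chrX:134459915-134460214 and PNP at chr14:20469156-20469455 (all plus strand). Capitals mark matches on either strand to the GC box, GGGCGG, or to the CCAAT box, spelled as its name.
XDH: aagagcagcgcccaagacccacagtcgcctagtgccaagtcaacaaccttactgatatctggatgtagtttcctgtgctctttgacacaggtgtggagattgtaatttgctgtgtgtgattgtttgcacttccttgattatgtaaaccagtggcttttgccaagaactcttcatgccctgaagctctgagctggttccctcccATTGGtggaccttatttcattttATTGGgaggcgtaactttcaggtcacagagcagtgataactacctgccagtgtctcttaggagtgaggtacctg
NT5E: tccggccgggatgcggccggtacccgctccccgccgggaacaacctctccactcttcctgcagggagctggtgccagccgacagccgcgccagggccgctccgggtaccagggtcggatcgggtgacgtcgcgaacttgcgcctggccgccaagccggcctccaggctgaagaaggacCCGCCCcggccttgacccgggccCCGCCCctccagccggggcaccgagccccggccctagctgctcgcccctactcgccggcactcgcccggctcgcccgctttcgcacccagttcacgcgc
HPRT1: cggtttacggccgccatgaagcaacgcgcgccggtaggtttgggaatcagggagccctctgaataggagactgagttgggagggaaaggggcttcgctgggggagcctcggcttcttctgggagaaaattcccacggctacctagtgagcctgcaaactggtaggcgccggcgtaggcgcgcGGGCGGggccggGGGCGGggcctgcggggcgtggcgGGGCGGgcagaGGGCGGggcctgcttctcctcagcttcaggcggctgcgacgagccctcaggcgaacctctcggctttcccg
PNP: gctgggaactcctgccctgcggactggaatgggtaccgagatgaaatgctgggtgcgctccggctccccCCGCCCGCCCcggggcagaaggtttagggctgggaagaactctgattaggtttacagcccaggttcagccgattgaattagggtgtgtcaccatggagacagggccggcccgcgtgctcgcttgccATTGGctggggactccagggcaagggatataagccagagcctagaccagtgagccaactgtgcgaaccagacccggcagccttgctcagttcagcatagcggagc

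The XDH window differed in make-up from the others printed. It held 47.0% G and C, against 75.0% in NT5E, 68.7% in HPRT1, 61.7% in PNP and a median of 58.7% over 34943 RefSeq windows of the same length. No GGGCGG was found in it, while HPRT1 had 4 matches, NT5E 2 and PNP 2, which overlap each other. Instead the XDH window had CCAAT on the minus strand at 2 places, 47 to 43 and 24 to 20 bases before the start, and PNP had it once. GGGCGG was present in 44.9% of all windows and CCAAT in 34.6%. The TATA box was searched as TATAAA on both strands, and 11.6% of all windows held it. The E-box that MYC binds was searched as CACGTG and was in 7.23% of windows. The cAMP response element TGACGTCA was in 1.84%. None of these was in the 4 windows printed. All 10 genes had a window in the table, 19 in all, of which 12 held a GC box. Among those not printed, windows of NT5C2 (31.7% and 29.3%) and AMPD3 (43.7%) held less G and C than that of XDH. They held no GC box either. CCAAT also stood in windows of ADK and AMPD3. GC boxes stood in windows of genes that were called higher (NT5E, ADA, ADK, APRT, AMPD3), called lower (HPRT1, PNP) and not called (AMPD2, NT5C2). A match of letters is a description only, and says nothing of binding.

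XDH, xanthine dehydrogenase, oxidises hypoxanthine to xanthine and xanthine to urate, and was the gene the group was chosen on. Its brighter probe set read 7.50, 7.55 and 7.41 in KD (replicates 1, 2 and 3 here and below) and 5.14, 4.95 and 5.00 in NC. All KD arrays were therefore more than 2 log2 units above all NC arrays. The difference was 2.46 (95% interval 2.27 to 2.65), a 5.50-fold higher signal and the 9th widest upward difference among the 18244 genes. The NC mean on this probe set, 5.03, was dim, below the 40th percentile of gene means (5.41). Background was not measured per probe set, so how far the fold depends on it is not known. The second XDH probe set read 7.18, 6.86 and 6.85 in KD and 5.39, 5.90 and 5.20 in NC. It was also higher in every KD array, but by less, 1.46 (95% interval 1.07 to 1.86), and the intervals of the 2 probe sets did not overlap. NC replicate 2 was the highest NC array on this probe set, and without it the difference was 1.66 (SE 0.12), against 2.42 (SE 0.089) for the first probe set. Neither XDH probe set carries the suffix of probe sets that can hybridise to several transcripts.

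PNP, purine nucleoside phosphorylase, splits inosine and guanosine into the bases that XDH and HPRT1 use, and it read lower. Its 1 probe set gave 8.91, 8.86 and 8.89 in KD and 9.61, 9.63 and 9.60 in NC. The groups were each within 0.05 log2 units and clearly apart, with a difference of -0.73 (95% interval -0.89 to -0.57), 1.66-fold lower. Thus of these neighbouring steps towards urate, PNP was lower and XDH higher.

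The members that make or use adenosine directly, NT5E, ADA and ADK, read higher. NT5E, the cell surface 5′-nucleotidase CD73 that makes adenosine from AMP outside the cell, read 7.68, 7.60 and 7.67 in KD and 7.06, 6.60 and 7.04 in NC on its brightest probe set. The difference was 0.75 (95% interval 0.46 to 1.03), or 1.68-fold. NC replicate 2 was the lowest array, and without it the difference was 0.60 (SE 0.080). The other NT5E probe sets were dimmer and were higher too, by 0.51 (95% interval 0.27 to 0.75) and 1.12 (0.86 to 1.38), with no overlap of the groups on any of the 3.

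ADA, adenosine deaminase, which turns adenosine into inosine, read 9.68, 9.76 and 9.74 in KD and 9.03, 9.13 and 9.09 in NC. Its second probe set read 9.47, 9.52 and 9.62 in KD and 8.87, 8.88 and 8.88 in NC. The 2 probe sets gave nearly the same difference, 0.64 (95% interval 0.47 to 0.81; 1.56-fold) and 0.66 (0.48 to 0.85). ADK, adenosine kinase, competes with ADA for adenosine and returns it to AMP. Its brighter probe set read 9.24, 9.22 and 9.41 in KD and 8.67, 8.57 and 8.65 in NC, a difference of 0.66 (95% interval 0.47 to 0.85; 1.58-fold). ADA and ADK, which draw on the same nucleoside, were thus higher by similar amounts. The dim second ADK probe set, of the cross-hybridising type, read 5.97, 5.82 and 5.80 in KD and 5.91, 5.12 and 5.90 in NC. The groups overlapped there, and the difference of 0.22 (95% interval -0.22 to 0.66) became -0.04 (SE 0.088) without NC replicate 2.

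The 2 phosphoribosyltransferases went opposite ways. HPRT1, which salvages hypoxanthine and guanine and is often used as a reference gene in expression work, read 9.89, 9.81 and 9.84 in KD and 10.74, 10.56 and 10.64 in NC. The difference was -0.80 (95% interval -0.99 to -0.62), 1.75-fold lower. APRT, which salvages adenine, read 10.85, 10.84 and 10.86 in KD and 10.39, 10.37 and 10.46 in NC. It was higher by 0.44 (95% interval 0.28 to 0.61), or 1.36-fold. Both rest on a single probe set, and that of HPRT1 is of a type that can hybridise to more than 1 transcript, so HPRT1 has no value with such probe sets left out.

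The AMP deaminases, which convert AMP to IMP, and the cytosolic nucleotidase differed least. AMPD3 read 5.30, 5.27 and 5.17 in KD and 4.81, 4.91 and 4.99 in NC on its brightest probe set, a difference of 0.34 (95% interval 0.15 to 0.53; 1.27-fold). All of its signals were dim. The next brightest probe set differed by 0.47 (95% interval 0.27 to 0.68), and the other 5 by between -0.09 and 0.35 with none called. With the mean of its probe sets AMPD3 differed by 0.22. AMPD2 read 7.92, 7.95 and 7.94 in KD and 7.99, 8.10 and 8.29 in NC, a difference of -0.19 (95% interval -0.40 to 0.02). Its 4 probe sets all pointed downwards, between -0.29 and -0.12, with 1 of them called (-0.29, 95% interval -0.50 to -0.08). That call was made in 1 of the 6 fits that leave out an array and was lost without NC replicate 2. NT5C2, the cytosolic nucleotidase that acts on IMP and GMP, read 9.20, 9.10 and 9.08 in KD and 9.16, 8.97 and 9.09 in NC. Its groups overlapped, and the difference was 0.05 (95% interval -0.14 to 0.25). Of its 3 dimmer probe sets, 1 was called higher (0.38, 95% interval 0.11 to 0.64) and the others differed by 0.17 and -0.03. That call was made in 2 of the 6 fits that leave out an array and was lost without NC replicate 2. The brightest NT5C2 probe set is of the cross-hybridising type, and without such probe sets NT5C2 differed by 0.17, which was not called.

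**Figure D2:**
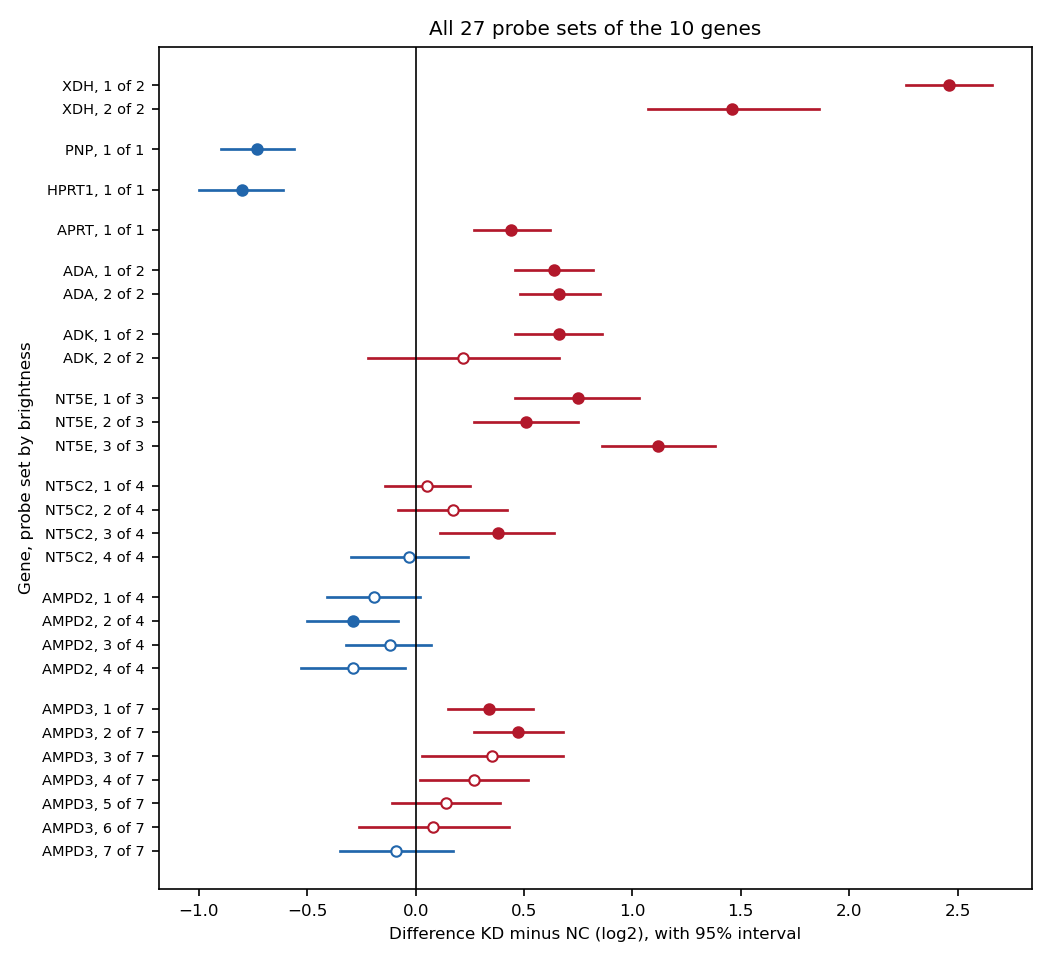
Difference KD minus NC (log2, horizontal axis) with its 95% interval for all 27 probe sets, ordered by gene and then by brightness; filled points were called by limma over all probe sets (adjusted p under 0.05). The probe sets of ADA agree closely, both of XDH are far above 0 but apart from each other, and those of AMPD3 fade towards 0 as they get dimmer.

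Over all 27 probe sets 12 were called higher, 3 lower and 12 neither. The background over the 49293 probe sets was 16.5% higher and 14.1% lower (30.6% in all). The 3 called lower were those of PNP and HPRT1 and 1 of AMPD2. The probe sets called higher belonged to XDH (2), NT5E (3), ADA (2), AMPD3 (2), ADK (1), APRT (1) and NT5C2 (1). No gene had probe sets called in both directions. Standard errors lay between 0.076 and 0.19, and the widest was that of the dim ADK probe set.

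**Figure D3:**
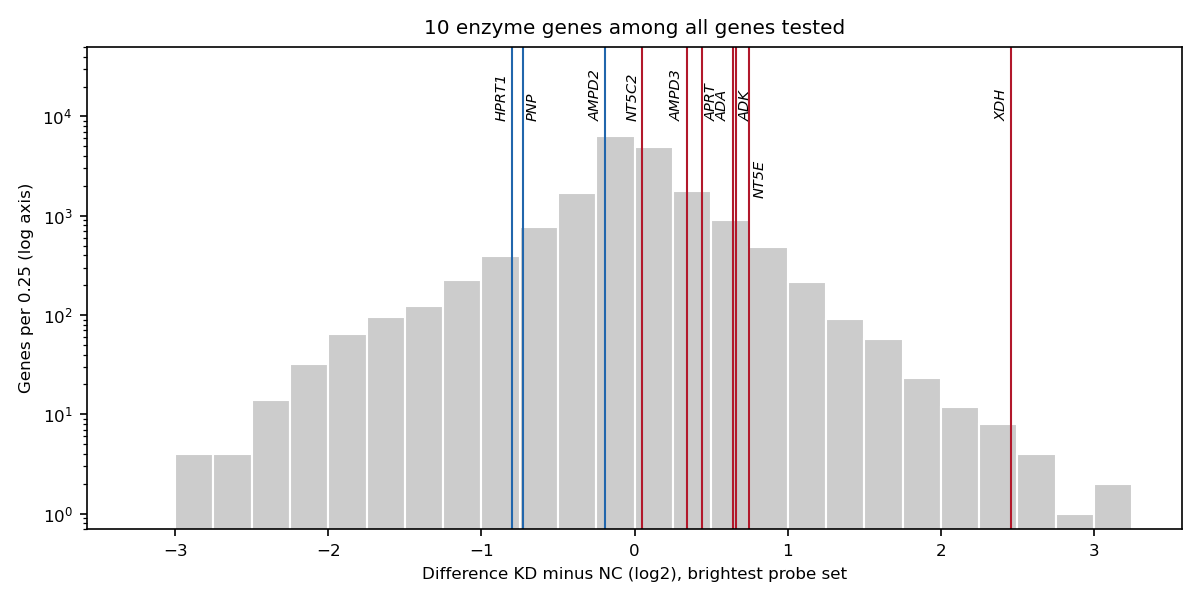
Number of genes (vertical axis, log scale) by difference KD minus NC (log2, bins of 0.25) over all 18244 genes, with vertical lines at the 10 enzyme genes. XDH at 2.46 lies far out in the upper tail, whereas the other 9 lie between -0.80 and 0.75.

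The rest of purine metabolism was described with 6 lists of genes outside the group, which held 87 measured genes of 96. Of these 20 rose and 18 fell (limma, adjusted p under 0.05), or 43.7% against 33.5% of all genes. Below, changes are log2 KD minus NC ± SE with n = 3 arrays per group.

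De novo synthesis, which builds IMP step by step, fell in 4 of 6 genes and rose in 0, with a median of -0.97. PFAS read 7.97, 7.93 and 7.86 in KD and 9.79, 9.71 and 9.70 in NC, a change of -1.82 ± 0.076 (limma, adjusted p = 1.33e-06). That is the brightest of its 4 probe sets and of the cross-hybridising type. All 4 fell, the least by 0.68, and PFAS gave -0.80 without cross-hybridising probe sets and -1.0 with the mean of probe sets. PPAT, the enzyme of the first committed step (-1.22 ± 0.092), PAICS (-1.13 ± 0.093) and GART (-0.81 ± 0.080) fell as well. PPAT and PAICS had only probe sets of the cross-hybridising type, so neither has a value with such probe sets left out. ADSL (-0.17 ± 0.083) and ATIC (-0.16 ± 0.087) did not pass (adjusted p = 0.161 and 0.225). This list had been seen to be low in these arrays before and is no independent evidence.

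Interconversion of nucleotides and other salvage moved strongly both ways, with 8 of 23 measured genes higher and 8 lower. IMPDH1 (-1.94 ± 0.13) and IMPDH2 (-1.22 ± 0.080), which lead from IMP towards guanine nucleotides, fell (limma, adjusted p = 8.32e-06 and 8.10e-06). PRTFDC1, a close relative of HPRT1, read 7.34, 7.12 and 7.23 in KD and 8.89, 8.79 and 8.86 in NC. It fell by 1.62 on the log2 scale (SE 0.085; limma, adjusted p = 2.62e-06), and 4 of its 5 probe sets fell. The adenylate kinases AK4 (1.25 ± 0.10) and AK1 (1.10 ± 0.088) and the guanylate kinase GUK1 (1.08 ± 0.078) rose, with limma adjusted p between 1.42e-05 and 2.39e-05. Some genes outside the naming rule, picked after their values were seen, bear on the steps above. PRPS1 and PRPS2 make the phosphoribosyl donor that HPRT1 and APRT use. PRPS1 fell on its brighter probe set (-0.59 ± 0.072), while its other gave -0.17 and was not called, and PRPS2 fell (-0.86 ± 0.085). So did the deoxynucleoside kinase DCK (-0.84 ± 0.089), while ADSS1, on the way from IMP to AMP, rose (0.80 ± 0.087). ADSS1 rests on 1 probe set, and ADSS2, also listed, had no matched probe set and was not analysed here.

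Among nucleotidases, deaminases and base enzymes outside the group, 5 of 16 rose and 2 fell, with a median of 0.051. The mitochondrial nucleotidase NT5M (0.37 ± 0.086; limma, adjusted p = 0.00917) and NT5C3B (0.40 ± 0.074) rose, and NT5C3A fell (-0.44 ± 0.084). NT5C3B rests on 1 cross-hybridising probe set. The list goes by enzyme class, and its nucleotidases were not sorted by substrate, so they need not act mainly on purines. PGM2, which handles the ribose phosphate that PNP releases, fell (-0.36 ± 0.091; limma, adjusted p = 0.0141), a call lost without KD replicate 2 (adjusted p = 0.0659), KD replicate 3 (0.0599) or NC replicate 1 (0.0542). LACC1, a purine nucleoside phosphorylase by another fold, rose by 0.59 ± 0.11 on a cross-hybridising probe set, whereas its other, dim probe set gave -0.20 and their mean was not called (0.19, adjusted p = 0.180). GDA, guanine deaminase, which supplies xanthine to XDH, rose on a dim, cross-hybridising probe set (0.55 ± 0.16; limma, adjusted p = 0.0305), a call lost without KD replicate 1 (adjusted p = 0.103) or KD replicate 3 (0.0910). GDA was also not called with quantile normalization (adjusted p = 0.0545) or without cross-hybridising probe sets (0.20, adjusted p = 0.429), and its change was 0.35 without NC replicate 2 and with the mean of probe sets. ADA2, the other adenosine deaminase, gave -0.02 ± 0.14, and AMPD1, the muscle AMP deaminase, 0.19 ± 0.11; neither passed.

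XDH needs a molybdenum cofactor, and genes that make the cofactor were set beside other enzymes that carry it. Of 9 genes 3 rose and 2 fell. The molybdoenzymes AOX1, aldehyde oxidase and the closest relative of XDH in this list (0.67 ± 0.083; limma, adjusted p = 0.000259), MTARC2 (0.54 ± 0.085) and SUOX, sulfite oxidase (0.35 ± 0.075), rose. AOX1 read 7.38, 7.38 and 7.35 in KD and 6.62, 6.82 and 6.65 in NC, so that the groups were clear of each other. MTARC1, a further molybdoenzyme, did not pass (-0.15 ± 0.078). GPHN, gephyrin, which inserts molybdenum into the cofactor, fell: it read 5.95, 5.81 and 5.80 in KD and 6.81, 6.89 and 7.02 in NC (-1.05 ± 0.089; limma, adjusted p = 3.11e-05). MOCS3, which activates a sulfur carrier for the cofactor, fell as well (-0.55 ± 0.11). Of the other genes that make the cofactor, MOCS1 (-0.12 ± 0.11) and MOCS2 (-0.07 ± 0.10) did not pass. MOCOS, the sulfurase that XDH and AOX1 need for activity, gave 0.12 ± 0.081 and did not pass.

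Of 22 measured genes for ectonucleotidases, adenosine receptors and nucleoside transport, 3 rose, 2 fell and 17 did not pass. The share called was 22.7%, against 33.5% of all genes. Among genes that did not pass, 1 other probe set of ADORA1 was called lower in the fit over probe sets. In the same fit 1 of ENPP4 and 1 of SLC29A2 were called higher. PANX1, a channel that releases ATP, rose (0.79 ± 0.092; limma, adjusted p = 0.000192), and both of its probe sets rose. ADORA2B, an adenosine receptor, rose (0.35 ± 0.075). SLC29A1, the equilibrative nucleoside transporter, fell by 0.52 on its brightest probe set (SE 0.088), while its other probe sets gave 0.10 and -0.07 without passing, and the mean of all its probe sets was not called (-0.16, adjusted p = 0.165). ENTPD6 (-0.29 ± 0.085) and the dim ENPP1 (0.25 ± 0.078) passed narrowly, and both calls were lost without KD replicate 1, 2 or 3 or NC replicate 3, with adjusted p between 0.0593 and 0.133. ENPP1 was also not called without NC replicate 1, with median centring, with trend and robust fitting or with the mean of probe sets (adjusted p between 0.0528 and 0.781), nor ENTPD6 with that mean (0.0564). ENTPD1, the ectoenzyme CD39 that works ahead of NT5E on extracellular ATP, gave -0.03 ± 0.11.

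Transporters of urate, the product of XDH, were mostly not called. Of 12 measured genes 1 rose and 0 fell, and 17.6% of all genes rose. The riser was ABCC4, an exporter of urate and many other anions (0.52 ± 0.14; limma, adjusted p = 0.0170), which was not called without KD replicate 1 (adjusted p = 0.0677). Without NC replicate 2 its change was 0.37. ABCG2, another exporter, read 0.12 higher (SE 0.076; 95% interval -0.05 to 0.29). The dim SLC17A1, SLC17A3 and SLC17A4 gave -0.17 ± 0.14, -0.09 ± 0.092 and -0.26 ± 0.13 and did not pass, and the renal carriers SLC2A9 and SLC22A12 gave 0.01 ± 0.086 and 0.06 ± 0.14. The urate that the cells made was not measured.

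**Figure D4:**
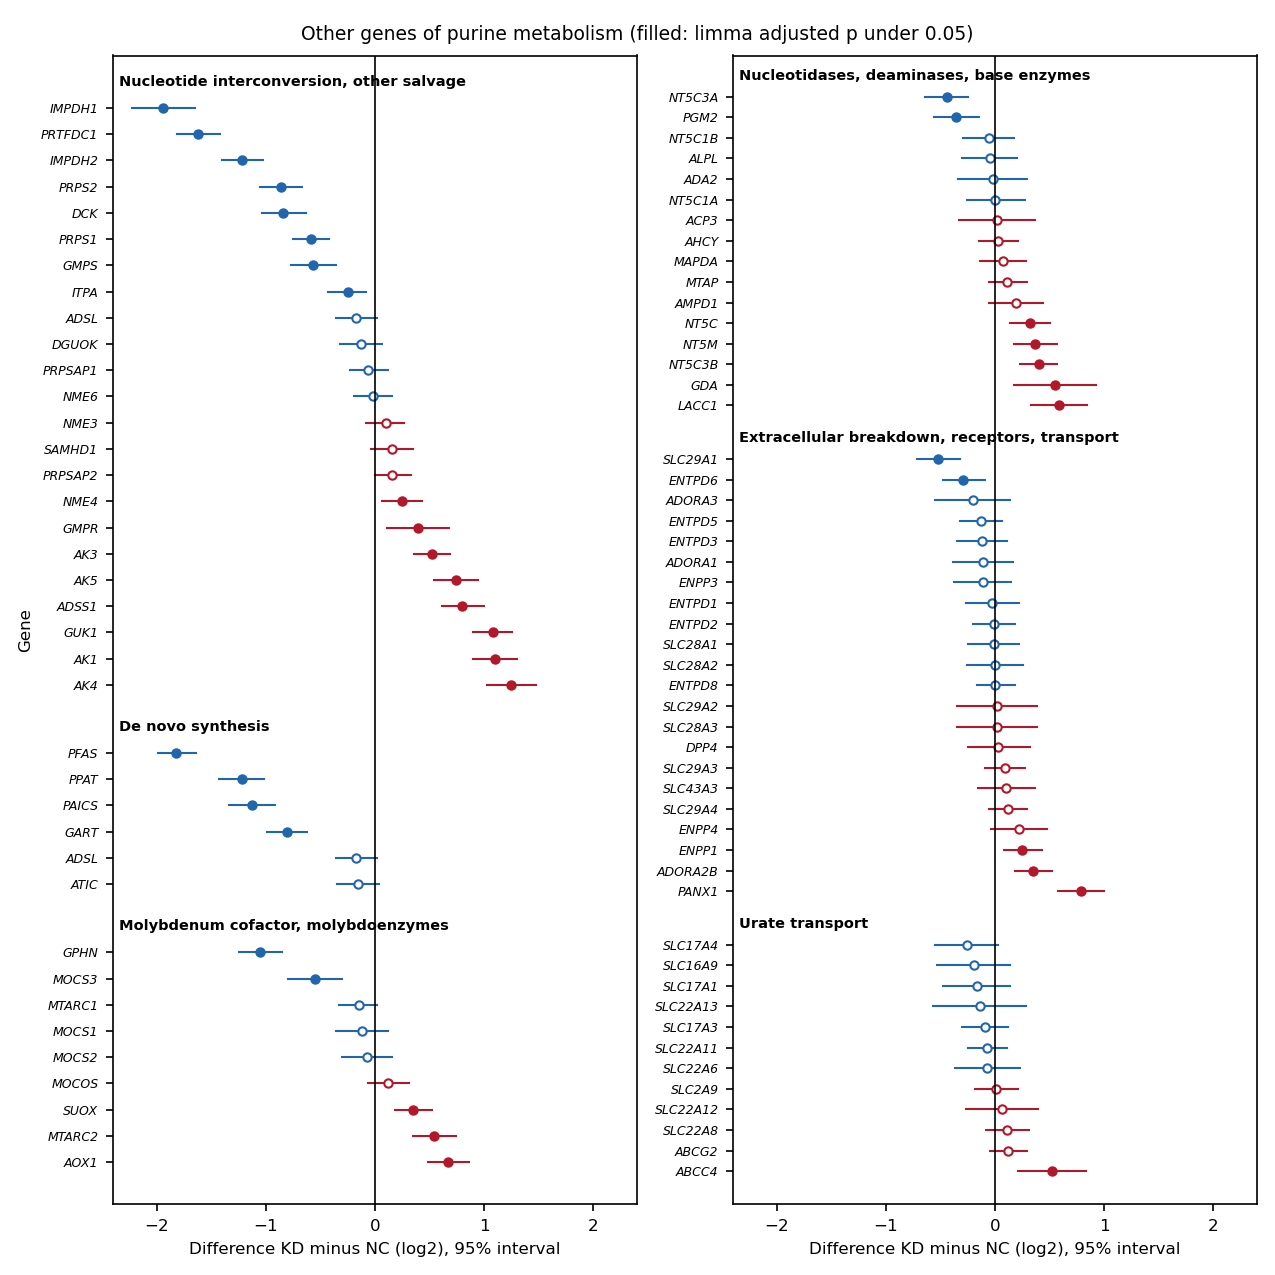
Difference KD minus NC (log2, horizontal axis) with its 95% interval for the measured genes of the 6 lists, in 2 panels; filled points passed the test (limma, adjusted p under 0.05) and ADSL stands in 2 lists. De novo genes all lie left of 0, interconversion genes spread from -1.94 to 1.25, and urate transporters stay close to 0 apart from ABCC4.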

How the data were processed

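The authors' deposited table was used as log2 probe set values. Its log base is not written and was taken from the values, whose array medians lie between 5.49 and 5.55. For probe summarisation and normalization the labels name no method, which leaves any compression of fold changes unknown. Labelled cRNA was prepared from 6 ug of Trizol-extracted RNA, per the labels' protocols.

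The array table held 49395 probe sets, 102 of them controls. A single gene symbol was annotated for 45278, several symbols for 1333 and no symbol for 2682. A gene was represented by its brightest single-symbol probe set. Genes (18244) and, separately, 49293 probe sets were tested two-sided in limma 3.58.1 (R 4.3.3) by lmFit and eBayes on the group alone, with Benjamini-Hochberg adjustment over each table, a threshold of 0.05 and no filter on dim values. Degrees of freedom were 4 residual and 4.67 prior, and 3 arrays per group limit the precision. Values of a gene's brightest probe set come from the gene fit, others from the probe set fit. Listed symbols were matched through the RefSeq table of GRCh38.p14; the 9 unmatched ones were not analysed here.

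The members, gene lists and tests were chosen with earlier results of these data known. Named were the 10 members, MRPL35 and, of each list, up to 6 called genes with the largest changes and no overlap between groups, or else the gene with the smallest p; others are said to be outside this rule or stand beside a count. On simulated KD against NC values for 18244 genes, 35 of 67 changes of 0.5, 60 of 67 of 1 and 66 of 66 of 2 were recovered, and 6 of 18044 unchanged genes were called. Alternatives were quantile normalization, median centring, trend and robust fitting, a replicate block, mean of probe sets, leaving out cross-hybridising (x or s suffix) probe sets, leaving out the dimmest 40% of genes, and leaving out each array. Figures were drawn with matplotlib 3.10.9.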

Additional observations from a re-analysis of the deposited data

How the results depend on the processing

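Every change of a member gene that could be recomputed kept its direction and its side of the threshold, 128 of 128 values over 13 alternatives. Values of HPRT1 without cross-hybridising probe sets and of AMPD3 without dim genes could not be had. The members called lower were therefore 1 without cross-hybridising probe sets, in which setting de novo synthesis had 2 falling genes of 4 measured and nucleotidases 3 rising genes of 15. Of 487 values over 38 named genes, 463 kept their call, 23 lost it and 1 reversed: LACC1, at -0.20 without cross-hybridising probe sets. With the mean of probe sets, 0 extracellular genes fell. With 1 array left out, falling extracellular genes numbered 1 to 2, rising nucleotidases 3 to 6, falling nucleotidases 1 to 2 and rising urate transporters 0 to 1. In the fit over probe sets, the brightest AMPD3 probe set was called in 3 of 6 such fits. Whether same-numbered KD and NC arrays belong together is not known. Deviations of same-numbered arrays correlated at 0.25, 0.26 and -0.096. Differently numbered arrays were not compared, so these values cannot decide it. The replicate block gave 3262 genes higher and 3014 lower, against 3207 and 2903 without it, with 6 and 2 members. Median centring moved the median of all genes from -0.018 to -0.040. Background was not measured per probe set, so small differences of dim probe sets such as those of AMPD3 have no check against it. The size of the XDH difference, which rests on dim NC signals, has no such check either.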
